A study of Mus musculus with 5 samples.

Results

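The genes described here encode the core of signalling through G protein-coupled receptors: heterotrimeric G proteins (alpha, beta and gamma subunits), the RGS proteins that switch them off, and the receptor kinases and beta-arrestins that silence the receptors. They were picked by gene symbol, which gave 64 of the 24417 named genes in the table. Of these, 21 encode RGS proteins, 16 G alpha, 5 G beta and 12 G gamma subunits, 6 receptor kinases, 2 arrestins and 2 proteins that bind RGS proteins. They were measured by RNA-seq in T cell subsets of the mouse colonic lamina propria, the tissue layer below the gut epithelium. Every library came from mice with 1 Foxp3DTR-GFP allele and 1 Foxp3 reporter-null allele, loxp-Thy1.1-STOP-loxp-GFP, in which Thy1.1 and a stop signal lie between loxP sites. The reporter-null group had 3 libraries of Thy1.1-positive cells, which use the null allele. The Treg group had 2 libraries of Foxp3-DTR-GFP-positive cells, which the study calls wild-type Treg cells. The age, sex and number of the animals are not given in the labels, nor is any treatment, and the description of reporter-null replicate 1 names the numbers 1 and 4 together, so it may hold cells of more than 1 mouse. Libraries are called by their replicate numbers below.

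An activated receptor makes the alpha subunit exchange GDP for GTP and part from the beta-gamma pair, and both then act on enzymes and channels. RGS proteins speed up the GTP hydrolysis of alpha subunits and so end the signal, while receptor kinases phosphorylate the active receptor and arrestins bind it and uncouple it. In T cells this machinery stands behind chemokine and sphingosine 1-phosphate receptors, which couple mainly to Gi proteins and steer homing to and retention in tissue, and behind the Gs-coupled receptors that raise cyclic AMP.

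The library totals ran from 19011118 to 22395169 counts in reporter-null cells, and were 17670420 and 22245610 counts in Treg cells. Levels are CPM, the counts divided by the scaled library size. Foxp3 lay at 75.7, 80.6 and 81.2 CPM in the reporter-null libraries and at 764 and 769 CPM in the Treg libraries, and Thy1 at 269.7, 269.1 and 300.3 CPM against 18.8 and 21.4 CPM, so both followed the labels. The 7 T cell markers found in the table summed to between 5499 and 6158 CPM in reporter-null cells, against 5871 and 5822 CPM in Treg cells. Within this list Cd4 was higher (1.98-fold, adjusted p = 0.00795 by edgeR, not called without Treg library 1 (0.1) or Treg library 2 (0.0738), 2.77e-13 to 0.112 over 14 alternatives) and Cd2 lower (2.58-fold, adjusted p = 0.00186), and in 5 of the 7 the groups did not overlap. Over all tested genes the groups did not overlap in 40.8%. Epithelial markers stood apart in reporter-null library 2, where 7 of them summed to 923 CPM, against 35.0 and 37.7 CPM in the other reporter-null libraries and 219 and 49.0 CPM in Treg cells. Fibroblast markers were highest in the same library, where 4 of them summed to 81.2 CPM, against 10.9 and 7.52 CPM in the other reporter-null libraries and 32.8 and 9.15 CPM in Treg cells. B and plasma cell markers summed to 393, 904 and 441 CPM in reporter-null libraries and to 1435 and 429 CPM in Treg libraries. Of that list Cd79b was lower (2.78-fold, adjusted p = 0.00460 by edgeR, not called without Treg library 1 (0.0544), 1.82e-10 to 0.117 over 14 alternatives). Mast cell and basophil markers summed to 27.2, 38.4 and 15.4 CPM in reporter-null libraries and to 7.65 and 8.78 CPM in Treg libraries, without overlap, and CD8 T cell markers to 5.95, 3.55 and 7.38 against 11.9 and 11.2 CPM, also without overlap. Nearly all of the mast cell sum was Kit, at 26.7, 37.2 and 14.7 CPM in reporter-null and 6.51 and 7.67 CPM in Treg libraries. Cpa3 of the same list lay the other way, at means of 0.607 CPM in reporter-null and 1.12 CPM in Treg cells. The CD8 sum was nearly all Cd8b1. Of the mast cell list Kit was higher (3.69-fold, adjusted p = 0.0439 by edgeR). Kit was not called with limma-voom (0.119) or without Treg library 1 (0.301), Treg library 2 (0.217) or reporter-null library 1 (0.138), and 14 alternatives gave 7.03e-06 to 0.301. Of the markers listed for other cell types, Cd79b and Kit were thus called. Cd8b1 lay lower in every reporter-null library but was not called (log2 fold change -1.08, adjusted p = 0.118 by edgeR). The part of other cells in the results was not tested. None of the markers on the epithelial, fibroblast and B cell lists was at 0 in all libraries. Results are given with and without reporter-null library 2 where it matters.

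The called genes lay among RGS proteins, G gamma subunits, receptor kinases and arrestins. None of the tested G alpha or G beta genes was called by edgeR, while DESeq2 called Gnal, Gna14 and Gnb5 of them. These families had 13 and 3 tested genes, so at the 8.79% called over all genes few calls would be expected. Of the 64 members 45 had enough counts to be tested, and 10 of these passed an adjusted p of 0.05 in edgeR's quasi-likelihood test, after Benjamini-Hochberg adjustment over all genes. The 7 higher in reporter-null cells were Rgs1, Rgs12, Gng2, Gngt2, Grk3, Grk5 and Arrb1, and the 3 lower were Rgs2, Rgs10 and Gng12. That is 22.2% of the tested members, against 8.79% of all 14164 genes tested. In each direction the background was 4.07% of genes higher and 4.72% lower. At least 2-fold were 6 of the higher and 2 of the lower members, against 2.43% and 2.75% of all genes. The median log2 fold change, reporter-null minus Treg throughout, was -0.01 over the tested members and 0.02 over all genes. In 24 members (53.3%) the groups did not overlap, against 40.8% of all genes. These are bulk libraries, so a lower share of cells that express a gene and less RNA per cell cannot be told apart. The labels do not say that libraries came from separate animals, so p-values rest on a spread among libraries that may be technical.

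The number of members called rested on single libraries. It was 3 without Treg library 1, 2 without Treg library 2, 3 without reporter-null library 1, 12 without reporter-null library 2 and 7 without reporter-null library 3. Over all genes it was 1245 with all libraries, and 378, 491, 473, 1840 and 1132 in the same order of libraries left out. The groups of the 10 called members did not overlap, so leaving out a library could hardly reverse them. All 10 members thus kept their direction in each of these fits. Gng2 and Rgs2 were also past the threshold in each of them.

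**Figure D1:**
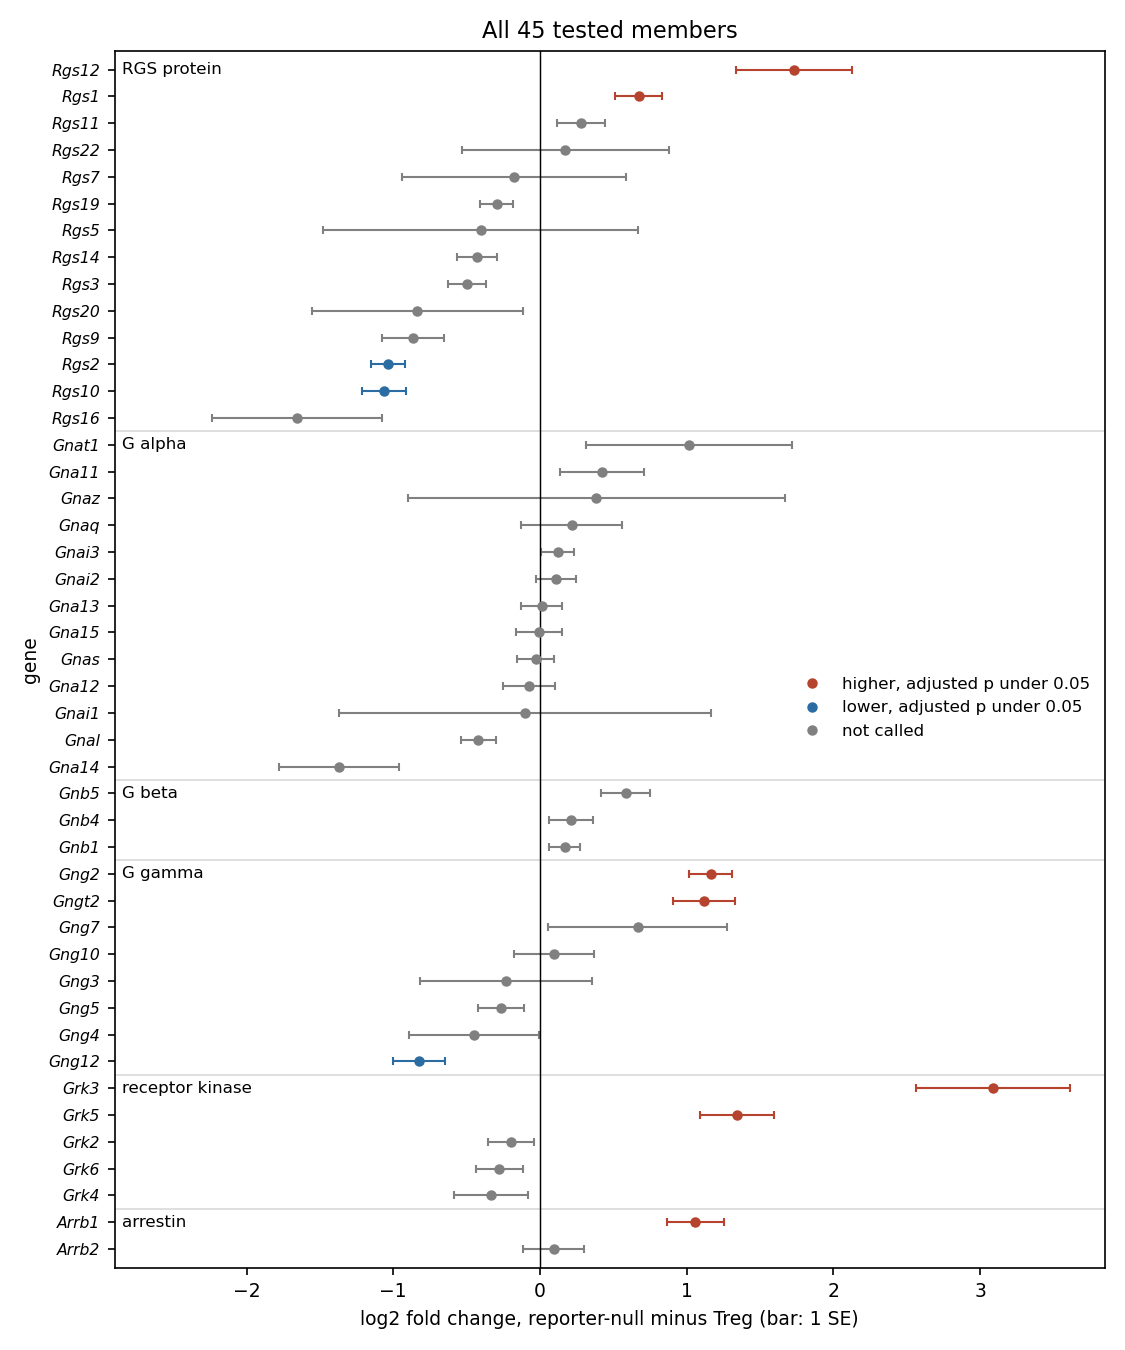
Log2 fold change, reporter-null minus Treg, of the 45 tested members by family, with bars of 1 standard error. RGS genes spread from -1.66 for Rgs16 to 1.73 for Rgs12, edgeR called none of the G alpha and G beta subunits (DESeq2 called Gnal, Gna14 and Gnb5), and the largest value is Grk3 at 3.09.

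The RGS proteins, the family with the most tested genes, had the most calls, and they went both ways. Of the 14 tested, 2 were higher and 2 lower in reporter-null cells. That is 28.6% called, against 8.79% of all genes. The share was 37.5% in G gamma subunits, 40% in receptor kinases and 50% in the 2 arrestins. The groups did not overlap in 11 of the 14, with reporter-null cells above in 3 and below in 8, where the background of all tested genes was 20.3% above and 20.5% below. At an unadjusted p under 0.05 there were 9 RGS genes, against 22.6% of all genes. The median log2 fold change of the family was -0.42. DESeq2 called 7 and limma-voom 5 of the 14, where over all genes they called 2323 and 1298.

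Rgs1, which blunts chemokine receptor signalling in lymphocytes, was the most abundant of them. It stood at 2416, 2408 and 2857 CPM in reporter-null libraries 1 to 3 and at 1468 and 1746 CPM in Treg libraries 1 and 2. All reporter-null libraries lay above both Treg libraries, a fold change of 1.59 (log2 fold change 0.67 with SE 0.158; adjusted p = 0.0469 by edgeR). The call was narrow. It was lost without Treg library 1 (0.302), Treg library 2 (0.133), reporter-null library 1 (0.132) or reporter-null library 3 (0.0729), and with Treg library 1 and reporter-null library 2 both left out (0.0515), and 14 alternatives gave 1.37e-05 to 0.302.

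Rgs2 acts chiefly on Gq subunits and is known as an activation-induced gene of T cells. Its level was 515, 455 and 470.2 CPM in the reporter-null libraries, against 961 and 1010.1 CPM in the Treg libraries. Every reporter-null library held about the same low level, and Rgs2 was 2.05-fold lower in the reporter-null group (log2 fold change -1.04 with SE 0.116; adjusted p = 0.00331 by edgeR). Different genes were set against each other per kb of annotated exon. This scale is rough, since it merges the exons of all annotated transcripts of a gene. On it Rgs1 stood at 667 ± 66.9 and Rgs2 at 148 ± 9.63 CPM per kb in reporter-null cells (SD, n = 3). In Treg cells the same levels were 418 ± 51.3 for Rgs1 and 303 ± 10.8 CPM per kb for Rgs2 (SD, n = 2). The genes are close neighbours. In the RefSeq annotation of GRCm38.p6, chromosome 1 carries Rgs2, Rgs13, Rgs1, Rgs21 and Rgs18 in a row with no other protein-coding gene between them. The rest of the row was nearly silent, with 1, 7 and 0 counts of Rgs13 in reporter-null and 0 and 5 in Treg libraries, 1, 1 and 6 against 2 and 1 counts of Rgs18, and no count of Rgs21.

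Rgs10, a small RGS protein that acts on Gi subunits and is abundant in resting immune cells, had 75.0, 55.8 and 72.9 CPM in reporter-null libraries and 146 and 138 CPM in Treg libraries. It was 2.09-fold lower in the reporter-null group (log2 fold change -1.07 with SE 0.151; adjusted p = 0.00787 by edgeR). Without Treg library 1 (0.0774) or Treg library 2 (0.0551) it was not called, and 14 alternatives gave 2.04e-08 to 0.0877. Rgs12, a large protein with an RGS domain next to Ras-binding and other interaction domains, went the other way. Its level was 15.05, 11.4 and 19.8 CPM in reporter-null libraries, against 3.04 and 6.24 CPM in Treg libraries. The groups did not overlap, and the log2 fold change was 1.73 (SE 0.395, adjusted p = 0.0436 by edgeR), or 2.34 without Treg library 2. That call was lost without Treg library 1 (0.184), Treg library 2 (0.0544), reporter-null library 1 (0.141) or reporter-null library 3 (0.0968), and 14 alternatives gave 1.36e-05 to 0.242. Rgs14, which shares this domain plan with Rgs12, was at 147, 146 and 117 CPM in reporter-null libraries and 185 and 183 CPM in Treg libraries. Its log2 fold change of -0.43 (SE 0.134) was called by DESeq2 (0.0372) but not by edgeR (adjusted p = 0.111).

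Promoter windows are shown for 4 called genes, Rgs2 and Rgs10 from the lower and Gng2 and Grk5 from the higher ones, as the bases that lie just before their transcription starts. Each is the 250 bases before the RefSeq start in GRCm38.p6, read 5′ to 3′ along the gene, for Rgs2 from chr1:144004150-144004399 on the minus strand, for Rgs10 from chr7:128418173-128418422 on the minus strand, for Gng2 from chr14:19976694-19976943 on the minus strand and for Grk5 from chr19:60889499-60889748 on the plus strand. Capitals mark matches to the motifs searched on both strands, which were TGTTTAC (forkhead), TGANTCA (AP-1), TGACGTCA (CRE) and TGGAAA (NFAT core); no matches overlapped.
Rgs2: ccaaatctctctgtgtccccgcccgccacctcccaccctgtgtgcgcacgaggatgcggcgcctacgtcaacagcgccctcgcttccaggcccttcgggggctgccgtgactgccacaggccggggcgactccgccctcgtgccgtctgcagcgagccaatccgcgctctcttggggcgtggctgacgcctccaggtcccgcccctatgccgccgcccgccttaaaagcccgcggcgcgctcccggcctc
Rgs10: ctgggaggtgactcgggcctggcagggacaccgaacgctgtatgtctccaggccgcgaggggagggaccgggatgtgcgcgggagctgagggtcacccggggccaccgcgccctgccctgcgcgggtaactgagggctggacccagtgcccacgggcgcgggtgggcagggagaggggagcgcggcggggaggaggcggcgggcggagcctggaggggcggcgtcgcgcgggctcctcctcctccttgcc
Gng2: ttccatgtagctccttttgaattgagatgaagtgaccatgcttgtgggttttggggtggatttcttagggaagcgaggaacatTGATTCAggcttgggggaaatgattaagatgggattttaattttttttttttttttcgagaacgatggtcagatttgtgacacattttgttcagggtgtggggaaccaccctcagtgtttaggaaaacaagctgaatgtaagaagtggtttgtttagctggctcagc
Grk5: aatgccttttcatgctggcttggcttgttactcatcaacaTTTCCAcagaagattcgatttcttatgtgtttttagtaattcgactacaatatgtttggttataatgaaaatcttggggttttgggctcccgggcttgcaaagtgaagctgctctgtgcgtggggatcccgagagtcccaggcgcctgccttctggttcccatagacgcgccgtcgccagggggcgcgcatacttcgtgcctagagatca
The Rgs2 and Rgs10 windows are rich in G and C, at 72.4% and 76.4%, and hold none of the motifs. The Gng2 window has a G and C share of 41.2% and an AP-1 match that starts at -167, and the Grk5 window has 49.6% and an NFAT core match at -210, where the median of all windows was 52.4%. Among called members 6 had an entry in the promoter table, with 8 windows. Of these 8, 0 held TGTTTAC, 2 held TGANTCA, 0 held TGACGTCA and 1 held TGGAAA, where the shares over all 32851 windows of this length were 3.17%, 6.75%, 1.55% and 18.6%. A match is a description of the letters and not a binding site. The G and C share was 72.4%, 76.4%, 74.4% and 75.6% in the windows of the lower genes Rgs2, Rgs10 and Gng12 (the last with 2 windows), and 68.4%, 55.6%, 41.2% and 49.6% in those of the higher genes Rgs12 (2 windows), Gng2 and Grk5. The windows of lower genes thus all lay above those of higher genes, which describes 6 genes and was not tested.

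Further RGS genes lay lower in each reporter-null library without passing the test. Rgs16, which T cells induce on activation and which also dampens chemokine receptors, had 36.5, 17.3 and 43.1 CPM in reporter-null libraries and 58.3 and 145 CPM in Treg libraries. The groups did not overlap, but the Treg libraries differed widely, and the log2 fold change of -1.66 (SE 0.577) was not called (adjusted p = 0.200 by edgeR). Without Treg library 2 it was -0.85 and without Treg library 1 it was -2.17. Among alternatives that kept all libraries, Rgs16 passed only with a replicate block by description number, which left 1 residual degree of freedom. Rgs3 was at 53.4, 51.0 and 53.2 CPM in reporter-null libraries and at 66.0 and 82.4 CPM in Treg libraries (log2 fold change -0.50, adjusted p = 0.0652 by edgeR). It passed with DESeq2 (0.0109), upper quartile scaling (0.0476) and a CPM filter (0.0467), and 14 alternatives gave 0.0109 to 0.279. Rgs19, also known as GAIP, had 71.9, 62.6 and 66.0 CPM in reporter-null libraries and 83.3 and 80.7 CPM in Treg libraries (-0.29, adjusted p = 0.184 by edgeR).

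The RGS proteins of the R7 class are stable only as a dimer with the beta subunit encoded by Gnb5. Rgs9, a member of this class, had 11.1, 13.6 and 16.2 CPM in reporter-null libraries and 22.4 and 27.5 CPM in Treg libraries. It lay just outside the threshold (log2 fold change -0.87 with SE 0.211; adjusted p = 0.0526 by edgeR) and passed with limma-voom (0.0411), DESeq2 (0.00716), without reporter-null library 2 (0.0379) and without reporter-null library 3 (0.0431), and 14 alternatives gave 0.000444 to 0.240. Rgs9 also passed with upper quartile scaling, with a CPM filter and with no filter beyond 1 count. Rgs11 of the same class differed by 0.28 (adjusted p = 0.381 by edgeR), at 32.7, 37.7 and 28.8 CPM in reporter-null libraries and 28.4 and 26.0 CPM in Treg libraries. Their partner Gnb5 was at 23.2, 23.7 and 19.9 CPM in reporter-null libraries and at 14.1 and 15.5 CPM in Treg libraries. Its groups did not overlap, and its log2 fold change of 0.59 (SE 0.167) was called by DESeq2 (0.0236) but not by edgeR (adjusted p = 0.0863).

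**Figure D2:**
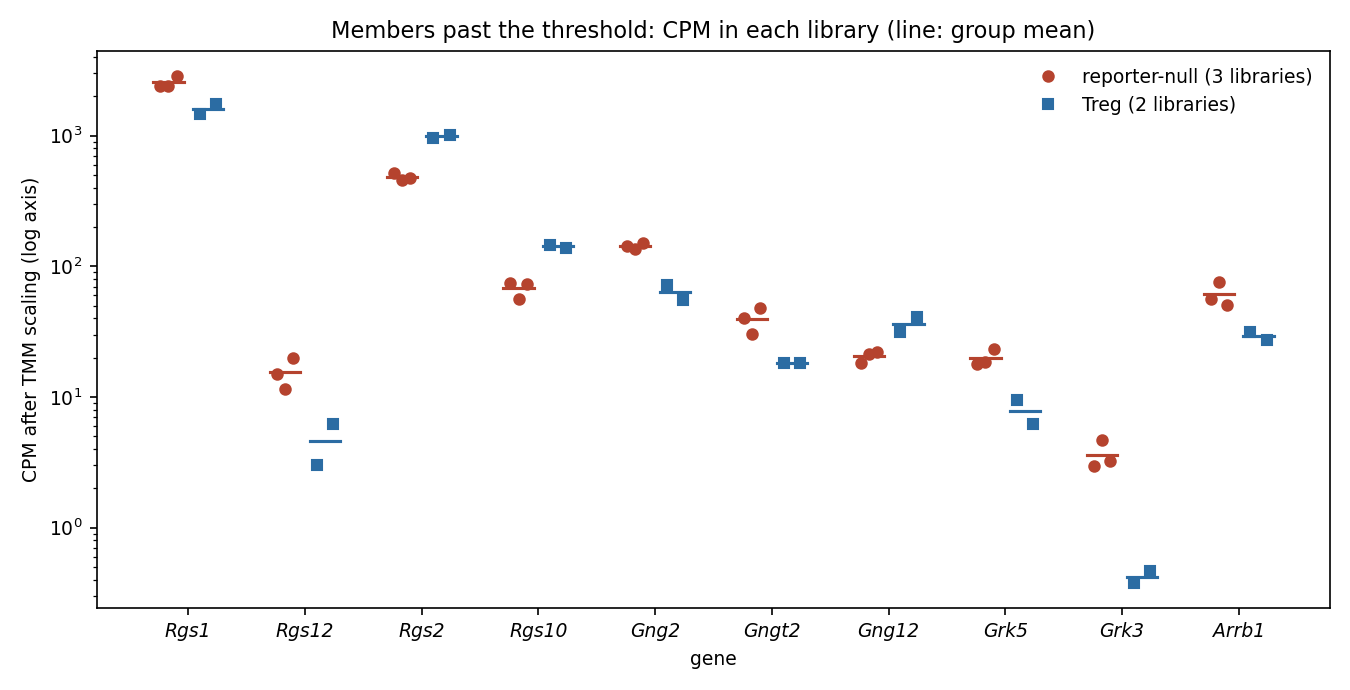
CPM in each library (log axis) of the 10 members past the threshold, with reporter-null libraries as circles, Treg libraries as squares and a line at each group mean. No gene has overlapping groups. Rgs1 is the most abundant, at 2408 CPM or more in reporter-null cells, and Grk3 the least, at 0.462 CPM or less in Treg cells.

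Transcripts of the G alpha subunits, which set the kind of signal a receptor gives, were not called. Of the 13 tested, edgeR and limma-voom called 0, and DESeq2 called 2 (Gnal and Gna14). These 2 also had an unadjusted edgeR p under 0.05, a share of 15.4% against 22.6% of all genes. Over all 14164 genes edgeR called 8.79%, limma-voom 1298 genes and DESeq2 2323 genes, so these counts are near the background. The median log2 fold change of the 13 was 0.01. Gnai2, the main Gi subunit of lymphocytes, had 1316, 1219 and 1090.0 CPM in reporter-null libraries and 1069 and 1176 CPM in Treg libraries (log2 fold change 0.11 with SE 0.137; adjusted p = 0.726 by edgeR). Its groups overlapped. Per kb it was the most abundant subunit, at 526 ± 49.4 CPM per kb in reporter-null cells (SD, n = 3) and 488 ± 32.7 CPM per kb in Treg cells (SD, n = 2). Of the next 3 by this measure in reporter-null cells, Gna13 overlapped with both others, while Gnas lay above Gnai3 in every library. They were Gnas, the Gs subunit that activates adenylyl cyclases, at 84.2 ± 7.02, Gna13 at 79.2 ± 10.0, and Gnai3 at 69.2 ± 4.62 CPM per kb (SD, n = 3). In Treg cells these levels were 86.0 ± 2.13 for Gnas, 78.5 ± 4.96 for Gna13 and 63.7 ± 0.318 CPM per kb for Gnai3 (SD, n = 2). Merged exons came to 10376 bases for Gnas and 2300 for Gnai2, so the level of Gnas per kb may be too low. In CPM the means in reporter-null cells were 874 for Gnas and 1209 for Gnai2.

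Log2 fold changes of these subunits were small, at -0.03 for Gnas (adjusted p = 0.926), 0.01 for Gna13 (0.976) and 0.12 for Gnai3 (0.607) by edgeR. Gna15, a Gq-class subunit of blood cells, was at 87.3, 63.2 and 70.6 CPM in reporter-null libraries and at 73.1 and 75.2 CPM in Treg libraries (-0.01, adjusted p = 0.982 by edgeR). Gnaq had 99.5, 59.3 and 133 CPM in reporter-null libraries and 77.5 and 90.3 CPM in Treg libraries (0.22, adjusted p = 0.791 by edgeR), with its lowest and highest values both in reporter-null cells. Gna12, the relative of Gna13, differed by -0.07 (adjusted p = 0.858 by edgeR), at 39.5, 41.5 and 29.6 CPM in reporter-null libraries against 36.6 and 41.0 CPM in Treg libraries. The direction of these near-zero values changed under at least 1 alternative for Gnas, Gna13, Gna15, Gnaq and Gna12.

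A pair of less abundant alpha subunits lay lower in every reporter-null library. Gnal, a Gs-class subunit best known from olfactory neurons, had 47.5, 49.6 and 45.04 CPM in reporter-null libraries and 67.8 and 59.2 CPM in Treg libraries. All reporter-null libraries were lower, with a log2 fold change of -0.42 with SE 0.119 (adjusted p = 0.0832 by edgeR, 0.0255 by DESeq2). Of the 11170 exonic bases of Gnal, 852 lie opposite Mppe1, which itself differed by -0.36 (adjusted p = 0.142 by edgeR). The strand setting of the counts is not given, so reads of this pair cannot be told apart in the shared stretch. Gna14, a Gq-class subunit, had 2.49, 4.605 and 2.45 CPM in reporter-null libraries and 6.51 and 9.98 CPM in Treg libraries. Its highest reporter-null value was in library 2, the library with the most epithelial and fibroblast marker reads, and their part in the result was not tested. The log2 fold change was -1.37 (adjusted p = 0.0971 by edgeR), and without that library it was -1.74 (adjusted p = 0.0112), and 14 alternatives gave 4.66e-06 to 0.391.

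G beta and G gamma subunits form the tight dimer that anchors alpha to the membrane and itself activates phosphoinositide 3-kinase gamma and phospholipase C beta. Gnb1 had 462, 455 and 434 CPM in reporter-null libraries and 405 and 396 CPM in Treg libraries, and Gnb4 20.9, 19.9 and 20.5 CPM against 17.6 and 17.6 CPM. Each was slightly higher in all reporter-null libraries (log2 fold changes 0.17 and 0.21, adjusted p = 0.414 and 0.474 by edgeR). Of the 3 beta subunits tested edgeR called 0, with Gnb5 at an unadjusted p under 0.05, and limma-voom called 0. Over all genes edgeR called 8.79%, so 0 of 3 is near the background. Gnb2, which is broadly expressed in mammalian tissue, was listed at 0 in every library, so nothing can be said of its level. In GENCODE M21 its exons share 134 bases with Epo and Mir6418 on the same strand. Epo, the erythropoietin gene, was listed at 40.4 ± 2.31 CPM in reporter-null (SD, n = 3) and 28.7 ± 1.97 CPM in Treg cells (SD, n = 2), and how the counting treated shared bases is not given in the sources used here.

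Among the gamma subunits 2 rose and 1 fell in reporter-null cells, of 8 tested. Over all genes 4.07% were called higher and 4.72% lower. Gng2, a common partner of the beta subunit encoded by Gnb1, stood at 142, 135 and 151 CPM in reporter-null libraries, against 72.0 and 55.5 CPM in Treg libraries. The groups were far apart, with a fold change of 2.24 (log2 fold change 1.16 with SE 0.147; adjusted p = 0.00504 by edgeR). Gng2 took 41.3%, 45.02% and 37.4% of the summed gamma subunit CPM in reporter-null libraries and 25.2% and 21.8% in Treg libraries. The sum itself was 344.7, 300.7 and 402 CPM in reporter-null libraries against 286 and 255 CPM in Treg libraries. In GENCODE M21 the gene model Gm48283, not analysed here, overlaps 897 bases of Gng2 exons on the opposite strand.

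Gngt2, first described in cone photoreceptors and also present in leukocytes, had 40.5, 30.4 and 47.7 CPM in reporter-null libraries and 18.1 and 18.3 CPM in Treg libraries. It was 2.17-fold higher in the reporter-null group (log2 fold change 1.12 with SE 0.213; adjusted p = 0.0234 by edgeR). Its call was lost without Treg library 1 (0.151), Treg library 2 (0.131) or reporter-null library 1 (0.0994), and 14 alternatives gave 1.2e-06 to 0.152. Exons of Gngt2 overlap by 137 bases those of Abi3 on the opposite strand. Abi3, an adaptor of actin regulators, rose too (255 ± 5.85 CPM in reporter-null and 123 ± 8.30 CPM in Treg cells, log2 fold change 1.04, adjusted p = 0.00268 by edgeR), so reads of this pair cannot be told apart in the shared stretch.

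Gng12 was the subunit that fell, at 18.2, 21.2 and 22.1 CPM in reporter-null libraries and 31.4 and 41.3 CPM in Treg libraries. Both Treg libraries lay above all reporter-null libraries (log2 fold change -0.83 with SE 0.177; adjusted p = 0.0345 by edgeR). The call did not hold without Treg library 1 (0.0732), Treg library 2 (0.184), reporter-null library 1 (0.151) or reporter-null library 3 (0.0543), and 14 alternatives gave 5.33e-05 to 0.184. Gng10 and Gng5 were not called, and the sign of each changed under at least 1 alternative. Gng10 had 83.9, 58.9 and 114 CPM in reporter-null libraries and 84.2 and 76.1 CPM in Treg libraries (0.10, adjusted p = 0.885 by edgeR). This value is uncertain, since 946 bases of its exons are shared with Gm20503 on the same strand. Gng5 had 54.3, 48.6 and 61.7 CPM in reporter-null libraries and 74.0 and 58.1 CPM in Treg libraries (-0.27, adjusted p = 0.389 by edgeR).

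**Figure D3:**
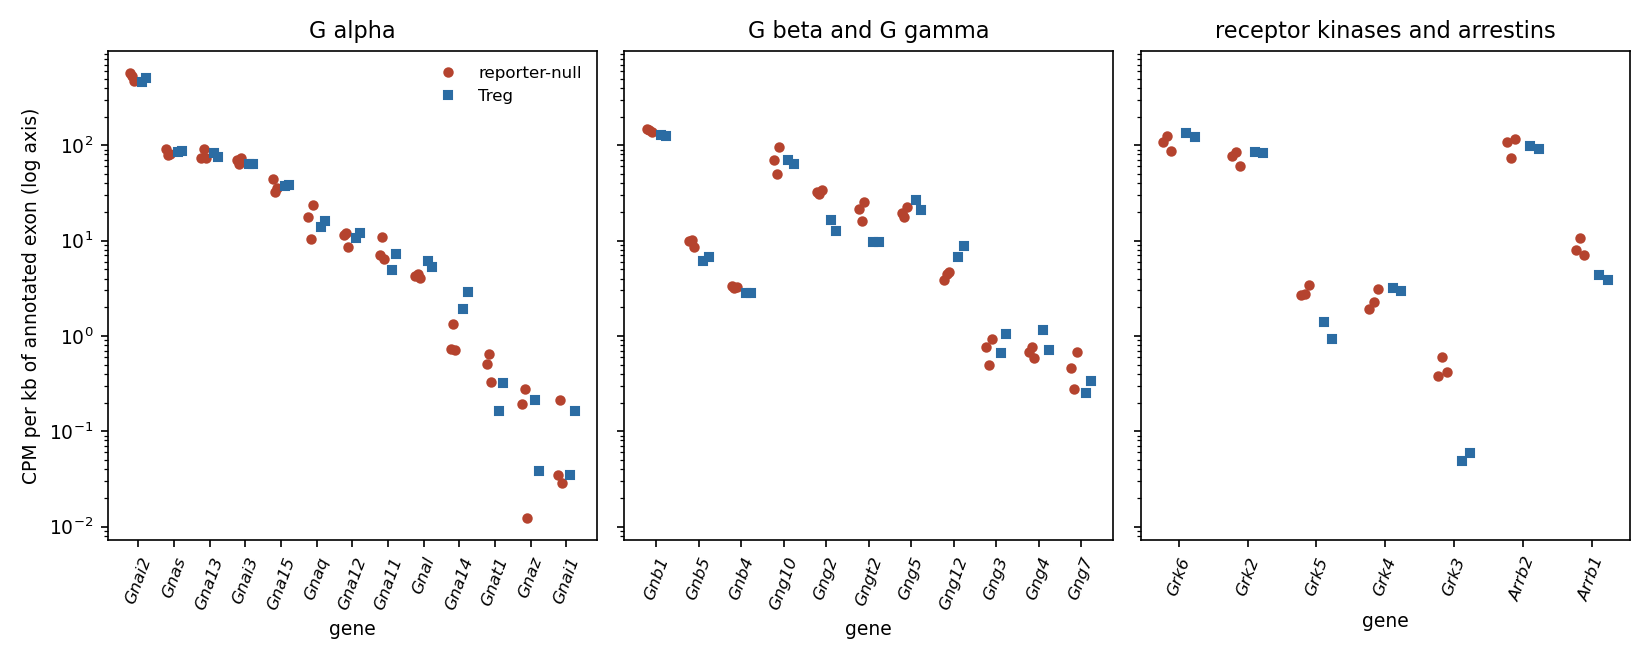
Level of each tested G protein subunit, receptor kinase and arrestin in each library, as CPM per kb of annotated exon (log axis), with reporter-null libraries as circles and Treg libraries as squares. Gnai2, Gnb1, Grk6 and Arrb2 lead their groups in both cell types, and Grk3 shows the widest gap between the groups.

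Of 5 tested receptor kinases 2 were higher and 0 lower, where 4.07% and 4.72% of all genes were called higher and lower. Grk6 and Grk2, the main kinases of lymphocytes, were high and uncalled. Grk6 had 391, 451 and 320.2 CPM in reporter-null libraries and 491 and 448 CPM in Treg libraries (log2 fold change -0.28 with SE 0.162; adjusted p = 0.382 by edgeR). For Grk2 the levels were 263, 290.2 and 207 CPM in reporter-null libraries and 294 and 287 CPM in Treg libraries (-0.20, SE 0.157, adjusted p = 0.542 by edgeR). Both genes had overlapping groups and were lowest in reporter-null library 3.

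The minor kinases Grk5 and Grk3 were higher in reporter-null cells. Grk3, the close relative of Grk2 that is known to desensitise CXCR4, had 2.98, 4.65 and 3.25 CPM in reporter-null libraries and 0.380 and 0.462 CPM in Treg libraries. In reads these were 55, 97 and 73 counts against 7 and 10 counts. The fold change was 8.49 (log2 fold change 3.09 with SE 0.525; adjusted p = 0.0157 by edgeR), the widest among the called members. Even so, Grk3 stayed at 0.463 ± 0.115 CPM per kb in reporter-null cells, where Grk2 was at 73.5 ± 12.3 CPM per kb (SD, n = 3). Its call was lost without Treg library 1 (0.113), Treg library 2 (0.0840) or reporter-null library 1 (0.0697), and 14 alternatives gave 5.88e-06 to 0.159.

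Grk5, a kinase that sits at the membrane without the help of beta-gamma, had 17.97, 18.5 and 23.3 CPM in reporter-null libraries and 9.49 and 6.24 CPM in Treg libraries. The groups did not overlap, and Grk5 was 2.53-fold higher in the reporter-null group (log2 fold change 1.34 with SE 0.252; adjusted p = 0.0225 by edgeR). It was not called without Treg library 2 (0.104), reporter-null library 1 (0.0784) or reporter-null library 3 (0.0585), and 14 alternatives gave 6.12e-08 to 0.164. Grk4 had a log2 fold change of -0.33 (adjusted p = 0.508 by edgeR) at 14.6 CPM or less in every library.

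The beta-arrestins differed between themselves. Arrb1 had 56.7, 75.4 and 50.8 CPM in reporter-null libraries and 31.2 and 27.4 CPM in Treg libraries. It was 2.08-fold higher in the reporter-null group (log2 fold change 1.06 with SE 0.194; adjusted p = 0.0205 by edgeR), with its highest value in reporter-null library 2. Without that library the log2 fold change was 0.87 and the call held, whereas it was lost without Treg library 1 (0.123), Treg library 2 (0.144) or reporter-null library 1 (0.0708), and 14 alternatives gave 7.41e-05 to 0.144. Arrb2, the more abundant form, had 211, 142 and 227 CPM in reporter-null libraries and 188 and 175 CPM in Treg libraries, with overlapping groups (0.09, SE 0.205, adjusted p = 0.848 by edgeR) and a sign that changed under 3 alternatives. Per kb, Arrb2 stood at 109, 73.5 and 117 CPM per kb in reporter-null libraries and at 97.2 and 90.5 CPM per kb in Treg libraries. Arrb1 lay far lower on this scale, at 7.92, 10.5 and 7.09 CPM per kb in reporter-null libraries and 4.36 and 3.82 CPM per kb in Treg libraries.

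The 11 other tested members had low counts or wide spread and none was called by edgeR. They were Gna11, Gnat1, Gnaz, Gnai1, Gng3, Gng4, Gng7, Rgs5, Rgs7, Rgs20 and Rgs22, with log2 fold changes between -0.84 for Rgs20 and 1.02 for Gnat1. The remaining 19 members were too low to test. Of these, 3 had no count (Gnb2, Gngt1 and Rgs21) and the other 16 had between 1 and 55 counts over the 5 libraries. They were Gnao1, Gnat2, Gnat3, Gnb3, Gng8, Gng11, Gng13, Grk1, Rgs4, Rgs6, Rgs7bp, Rgs8, Rgs9bp, Rgs13, Rgs17 and Rgs18. A pair of them peaked in reporter-null library 2, the library with the most fibroblast marker reads. Gng11 had 5, 37 and 4 counts in reporter-null libraries and 8 and 1 in Treg libraries, and Rgs4 had 0, 14 and 0 counts against 2 and 2. The part of other cells in these counts was not tested. Rgs6 had 8, 3 and 24 counts in reporter-null libraries and 5 and 8 in Treg libraries.

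Immediate early genes, which respond to activation and to tissue dissociation, were read beside the RGS genes because Rgs1, Rgs2 and Rgs16 belong to the same kind of rapidly induced gene. The 14 listed genes summed to 70831, 39927 and 60885 CPM in reporter-null libraries and to 26702 and 61343 CPM in Treg libraries. The heat shock genes Hspa1a and Hspa1b made up 32833, 5624 and 26637 CPM of this in reporter-null libraries and 3792 and 31763 CPM in Treg libraries. The groups overlapped in the sum of all 14. Without these 2 genes, a sum chosen after seeing the data, the other 12 came to 37998, 34303 and 34248 CPM in reporter-null libraries and 22910 and 29580 CPM in Treg libraries, and the groups did not overlap. Of the 14 genes 13 had a positive log2 fold change. Reporter-null cells lay above in 7 and below in 0, where they did in 20.3% and 20.5% of all genes, and the rest overlapped. Some immediate early transcripts thus moved with the groups, while the sum of all 14 did not separate them. The part of these transcripts in the results for Rgs1, Rgs2 and Rgs10 was not tested. Of the 14 genes 2 were higher, Fosb (log2 fold change 1.06, adjusted p = 0.0184) and Btg2 (0.78, adjusted p = 0.0347), and 0 lower by edgeR, where 4.07% and 4.72% of all genes were called higher and lower, with a median log2 fold change of 0.60. Fosb was not called without Treg library 1 (0.170), Treg library 2 (0.0831) or reporter-null library 1 (0.0766), and 14 alternatives gave 1.14e-06 to 0.170. Btg2 was not called without Treg library 1 (0.217), Treg library 2 (0.0602), reporter-null library 1 (0.119) or reporter-null library 3 (0.0620), and 14 alternatives gave 2.39e-05 to 0.217. At an unadjusted p under 0.05 there were 5 of the 14 (35.7%), against 22.6% of all genes. DESeq2 called 5 of the 14, where it called 2323 of all 14164 genes tested.

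**Figure D4:**
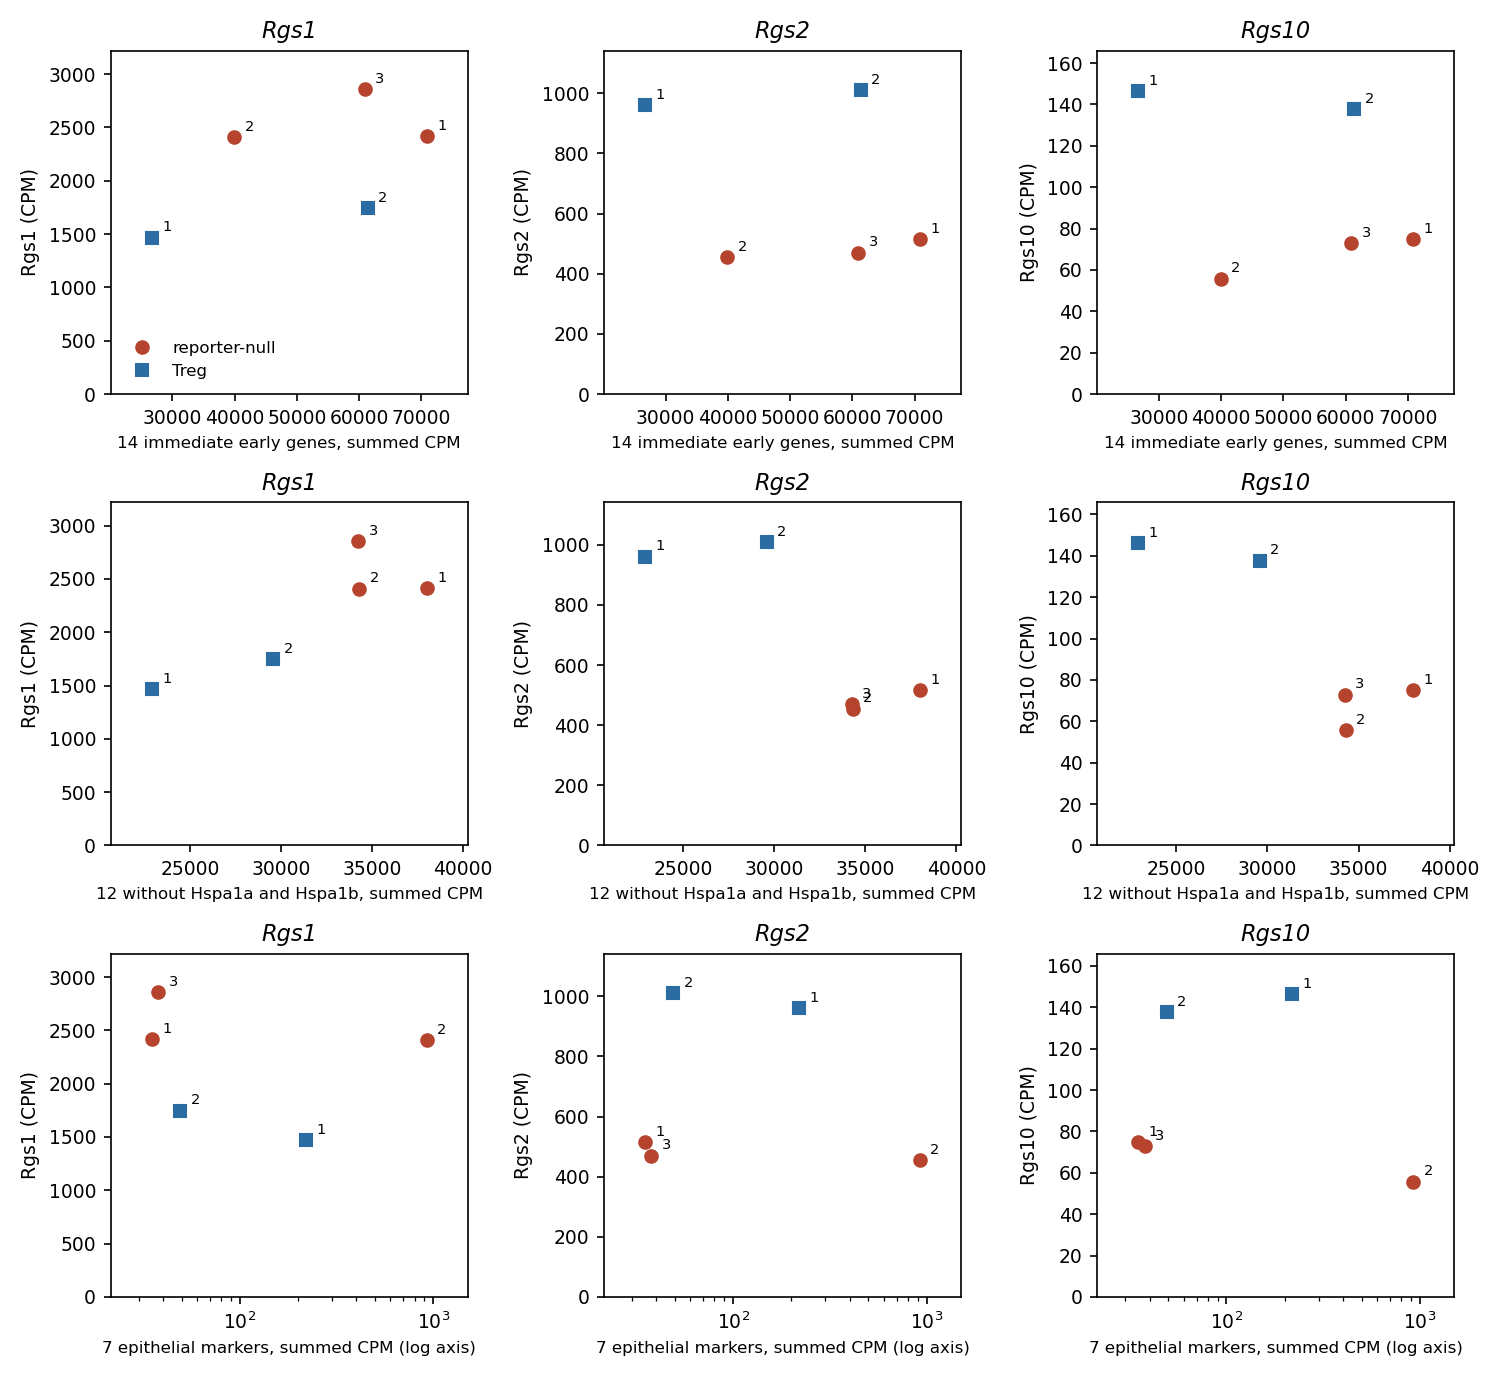
CPM of Rgs1, Rgs2 and Rgs10 in each library against the summed CPM of 14 immediate early genes (upper row), of 12 of them without Hspa1a and Hspa1b (middle row) and of 7 epithelial markers (lower row, log axis), with replicate numbers beside the points. The groups overlap along the horizontal axis in the upper and lower rows and do not in the middle row, where reporter-null libraries start at 34248 CPM and Treg libraries end at 29580 CPM.

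Upstream of this machinery stand the receptors. Of 44 tested G protein-coupled receptors of T cells, 7 were higher and 10 lower in reporter-null cells, against 4.07% higher and 4.72% lower among all genes, with a median log2 fold change of -0.15. By p the first were the receptor Gpr83, the chemokine receptor Cxcr6, Glp1r and the thrombin receptor F2r. Gpr83, long known as a gene of Treg cells, had 14.1, 13.3 and 9.65 CPM in reporter-null libraries and 152 and 151 CPM in Treg libraries (log2 fold change -3.62, adjusted p = 0.000207 by edgeR). Cxcr6, a Gi-coupled receptor of tissue T cells, had 999, 1090.5 and 914 CPM in reporter-null libraries and 202 and 180.3 CPM in Treg libraries (2.39, adjusted p = 0.000485 by edgeR). F2r, which couples to Gq and to Gna12 and Gna13, had 416, 424 and 383 CPM in reporter-null libraries and 150.1 and 168 CPM in Treg libraries (1.36, adjusted p = 0.00145 by edgeR). Glp1r, the Gs-coupled receptor for glucagon-like peptide, had 1064 counts over the reporter-null libraries and 1 over the Treg libraries, which per unit of depth is a ratio of 690 (124 to 27300 at 95% confidence, counting error only).

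Downstream of the receptors, 3 of 22 tested effectors were higher and 1 lower, with a median log2 fold change of 0.52. The background was 4.07% higher and 4.72% lower, so the single lower gene is about what all genes show. Adcy7, an adenylyl cyclase of immune cells that Gs and beta-gamma activate, had 422, 362 and 384 CPM in reporter-null libraries and 167 and 219 CPM in Treg libraries (1.01, SE 0.154, adjusted p = 0.0102 by edgeR). Its call was lost without Treg library 1 (0.0902) or reporter-null library 1 (0.0554), and 14 alternatives gave 5.43e-09 to 0.142. Pik3r5, the regulatory subunit through which beta-gamma activates phosphoinositide 3-kinase gamma, had 77.8, 62.2 and 61.8 CPM in reporter-null libraries and 42.7 and 41.4 CPM in Treg libraries (0.68, adjusted p = 0.0338 by edgeR). It was not called without Treg library 1 (0.172), Treg library 2 (0.168) or reporter-null library 1 (0.127), and 14 alternatives gave 0.000766 to 0.172. Plcb4, a phospholipase C of the Gq pathway, rose by 0.86 (adjusted p = 0.0427 by edgeR), a call lost without Treg library 1 (0.156), reporter-null library 1 (0.128), reporter-null library 3 (0.0932) or both Treg library 1 and reporter-null library 2 (0.0711), and 14 alternatives gave 0.000988 to 0.156. The protein kinase C gene Prkcb was lower (log2 fold change -0.54, adjusted p = 0.0337 by edgeR), a call lost without Treg library 1 (0.166), Treg library 2 (0.183), reporter-null library 1 (0.159) or reporter-null library 3 (0.0509), and 14 alternatives gave 0.000232 to 0.183.

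Proteins that carry an RGS-like domain under other names were mostly not called. Of 9 tested, 1 was lower, against 4.72% of all genes. Snx13, a sorting nexin with such a domain, was lower (32.3, 33.3 and 30.6 CPM in reporter-null and 88.1 and 84.2 CPM in Treg libraries, log2 fold change -1.43, adjusted p = 0.000878 by edgeR). The 11 tested chaperones and nucleotide exchange modulators of alpha subunits gave 0 calls by edgeR, DESeq2 or limma-voom. Of them 1 gene had an unadjusted edgeR p under 0.05, and the median log2 fold change was 0.14. Over all genes edgeR called 8.79%, and 22.6% had an unadjusted p under 0.05. Among 5 tested arrestin-fold relatives 2 fell, against 4.72% lower among all genes. Arrdc4 had 16.1, 24.2 and 19.4 CPM in reporter-null libraries and 66.5 and 70.4 CPM in Treg libraries (-1.78, adjusted p = 0.00251 by edgeR). Arrdc1 was lower (log2 fold change -0.62, adjusted p = 0.0229 by edgeR), a call lost without Treg library 1 (0.190), Treg library 2 (0.0934) or reporter-null library 1 (0.117), and 14 alternatives gave 2.5e-05 to 0.190.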

How the data were processed

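Poly(A) RNA was amplified with SMART-Seq v4 and sequenced as paired-end libraries, per the labels' protocols. The authors deposited whole-number read counts per gene symbol for 5 libraries, and DESeq is named without a version in the submitters' processing notes. For the aligner, genome build, annotation, counter and strand setting the entry is: not given in the sources used here. 4 of the 24421 rows named no gene, took between 0.0034% and 0.00492% of each library, and were left out.

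Groups were taken from the labels (3 reporter-null, 2 Treg). All genes with at least 10 counts in enough libraries and 15 in total (edgeR's filterByExpr) were tested with edgeR 4.0.16 in R 4.3.3 by the quasi-likelihood test after TMM scaling, which gave 14164 genes, a common biological coefficient of variation of 0.401 and p-values adjusted by Benjamini-Hochberg over all of them. A gene past an adjusted p of 0.05 is called. With 2 Treg libraries, 1 library can move many calls. DESeq2 1.42.0, limma 3.58.1 (voom), other scaling factors, filters and thresholds, replicate blocks and leaving out libraries were alternatives. The tests were tried on simulated data first.

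Members were matched by symbol. The members and the gene lists were chosen with earlier results of these data known. Named were called members, members with a mean of at least 30 CPM, and up to 4 called genes of each list by p; Rgs9, Gnb4, Gnb5, Gna14, Grk4 and the markers Cd4, Cd2, Cd79b and Kit were named after their values were seen. Levels per kb use merged GENCODE M21 exons. Promoters come from RefSeq (GRCm38.p6), where 45 of 64 members had an entry. Marker lists were summed per library; beside those in the results, macrophage and dendritic cell markers came to 21.9, 80.6 and 24.9 CPM in reporter-null against 43.8 and 14.7 CPM in Treg libraries, natural killer and innate lymphoid cell 6.01, 7.63 and 7.60 against 8.14 and 12.1 CPM, endothelium 95.5, 94.0 and 86.6 against 81.5 and 102 CPM, glia and neuron 1.62, 1.01 and 1.65 against 3.53 and 1.43 CPM, gamma-delta T cell 0.0541, 3.93 and 0.178 against 1.79 and 0.139 CPM, and neutrophil 0.0541, 0.863 and 0.0889 against 0.705 and 0.139 CPM.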

Additional observations from a re-analysis of the deposited data

How the results depend on the processing

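The 10 called members kept their direction under all 14 alternative fits. Their groups did not overlap, so leaving out libraries could hardly have changed it. RLE factors, limma-voom and no count filter gave 10, 11 and 11 called members. DESeq2 called 16 members, 8 of them lower, and 2323 genes in all. Upper quartile factors and a filter at 1 CPM each gave 5 lower members. An adjusted p under 0.01 left 3 members (1 higher) and 489 genes, and a fold of at least 2 left 734 genes. Leaving out 1 library at a time gave 378 to 1840 genes, 2 to 12 members, 1 to 7 higher and 1 to 5 lower. Leaving out Treg replicate 1 and reporter-null replicate 2 together gave 2131 genes and 7 lower members.

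Same-numbered libraries were not known to share an animal. Their deviations from the group mean correlated at -0.511 and -0.602 by title number and at 0.602 and 0.481 by description number. With 2 Treg libraries these deviations are mirror images, so each value comes with its opposite, as 0.602 and -0.602 for reporter-null library 2. The values are not independent and do not show which numbering, if either, pairs animals. Either replicate block leaves 1 residual degree of freedom, so neither count is firm. A replicate block by title number gave 24 genes and 0 members (0 higher, 0 lower), while a replicate block by description number gave 1399 genes and 10 members, without Gng12 (adjusted p = 0.0522) and with Rgs16 (8.43e-06).

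Some log2 fold changes of uncalled genes changed sign. Under the replicate block by title number these were Arrb2 (-0.0652), Gnaq (-0.122), Gna15 (0.00231), Gna12 (0.0636) and Gng10 (-0.187), and under the block by description number Arrb2 (-0.0137). Gna13 was -0.0090 with upper quartile factors and -0.0010 with the CPM filter, and Gna15 was 0.00153 without a filter. With Treg replicate 1 and reporter-null replicate 2 both left out, Gna13 was -0.0294, Gna15 was 0.0722 and Gng5 was 0.000137. With 1 library left out at a time, the values ran from -0.0397 to 0.265 for Arrb2, -0.101 to 0.00126 for Gnas, -0.106 to 0.0844 for Gna13, -0.0804 to 0.466 for Gnaq, -0.149 to 0.0826 for Gna15, -0.176 to 0.0619 for Gna12 and -0.168 to 0.298 for Gng10. The cause was not tested.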
